A study of Homo sapiens with 12 samples.

Results

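Of 19460 genes in the deposited expression table, 6 were followed here: 5 mismatch repair genes (MSH3, MSH6, MLH3, PMS1 and PMS2) and UNG, which encodes uracil-DNA glycosylase. They were picked by symbol, and all 6 were measured and passed the filter on low values, a mean of at least 0.5 FPKM over the 6 libraries, which 15869 genes passed. FPKM are fragments scaled to transcript length and to library size, so levels of different genes can be compared. The cells were T-47D, an established line of luminal, oestrogen receptor positive breast cancer, with the genotype given as WT for the RNA libraries. One group received palbociclib, which inhibits CDK4 and CDK6, at 1 µM for 24 h, and the other received the solvent DMSO for 24 h. Poly(A) RNA sequencing had 3 libraries per group, and ATAC-seq, which counts insertions of the transposase Tn5 into accessible chromatin, had 3 per group with DMSO at 0.1%. The labels call the ATAC libraries biological replicates but do not say whether the RNA libraries came from separate cultures, so RNA p-values measure only the spread between these libraries.

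Mismatch repair removes base mispairs and small loops left behind by DNA polymerases. A MutS dimer finds the error, a MutL dimer licenses and nicks the new strand, and an exonuclease, a polymerase and a ligase replace the faulty stretch. MSH6 and MSH3 are alternative MutS subunits. The dimer with MSH6 recognises mispairs and very short loops, and the dimer with MSH3 recognises longer loops. PMS2, PMS1 and MLH3 are likewise alternative MutL subunits: PMS2 carries the endonuclease used in most repair, MLH3 acts mainly in meiotic crossover formation and in a smaller share of repair, and the role of PMS1 is less well defined. UNG cuts uracil from DNA, where it arises by cytosine deamination or by incorporation of dUTP during replication, and so starts base excision repair. UNG and MSH6 act mostly behind the replication fork.

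The RefSeq promoter table (GRCh38.p14) held windows for 11 starts of the 6 genes, each of 250 bases before the start and 50 after it. They were searched on both strands for the E2F words TTTCCCGC, TTTCGCGC, TTTGCCGC and TTTGGCGC, since E2F factors act downstream of CDK4 and CDK6. A match was present at 5 of the 11 starts, in 4 of the 6 genes: MSH3, MSH6, PMS2 and UNG. The 2 PMS2 starts share 1 match, since their windows overlap. MSH3 holds 2 overlapping words, at -107 and -103. Of all 35116 windows of this length, 3.31% held a match, which is a share of windows and not of genes. The matched sites of MSH6, PMS2 and UNG are printed 5′ to 3′ in the direction of the gene, with the E2F words in capitals.
MSH6, chr2:47783137-47783166, plus strand: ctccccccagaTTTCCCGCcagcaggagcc
PMS2, chr7:6009131-6009160, minus strand: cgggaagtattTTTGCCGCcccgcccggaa
UNG, chr12:109098098-109098127, plus strand: gagggaggtttTTTGCCGCgaaaagaccac
The PMS2 match lies at position -43 relative to the first of its 2 listed starts and at -100 from the other, and the MSH6 match begins at base 4 of the transcript from the most upstream of 4 listed starts. Windows of MLH3 and PMS1 held none of these words. UNG and MLH3 are shown at greater length because the RNA of UNG changed most and because a start peak of MLH3 changed, both described further on. UNG has 2 listed starts, at chr12:109097597 and chr12:109098172, and only the downstream one has an E2F match, at -63.
UNG upstream start, chr12:109097347-109097596: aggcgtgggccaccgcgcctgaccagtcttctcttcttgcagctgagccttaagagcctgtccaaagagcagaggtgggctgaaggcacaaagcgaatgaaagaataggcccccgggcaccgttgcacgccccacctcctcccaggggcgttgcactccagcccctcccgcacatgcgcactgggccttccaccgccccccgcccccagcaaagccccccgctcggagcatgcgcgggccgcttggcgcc
UNG downstream start, chr12:109097922-109098171: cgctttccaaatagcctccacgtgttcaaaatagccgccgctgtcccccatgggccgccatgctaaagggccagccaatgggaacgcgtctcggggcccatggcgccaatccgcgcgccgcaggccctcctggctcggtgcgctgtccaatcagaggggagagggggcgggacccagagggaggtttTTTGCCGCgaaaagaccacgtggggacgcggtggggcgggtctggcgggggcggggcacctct
MLH3, minus strand, chr14:75051468-75051717: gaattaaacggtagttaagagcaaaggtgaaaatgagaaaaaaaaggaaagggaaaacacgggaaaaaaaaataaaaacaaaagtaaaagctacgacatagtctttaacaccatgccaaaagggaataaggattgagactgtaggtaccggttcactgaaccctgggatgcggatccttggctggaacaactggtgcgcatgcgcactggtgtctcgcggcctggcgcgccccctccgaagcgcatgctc
The stretch before the MLH3 start is 47.2% G and C, against 68.0% before each UNG start. Besides E2F words, the window of the downstream UNG start holds 3 CCAAT boxes (CCAAT, found in 34.6% of all windows) and 1 match to the cell cycle homology region (TTTGAA, found in 15.2%). These are matches of letters and were not tested for binding.

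With palbociclib, the mean RNA level of UNG fell by 52.0%, that of MSH6 fell by 38.7%, that of PMS1 fell by 23.6% and that of MSH3 fell by 16.9%. Neither MLH3 nor PMS2 was called. In bulk samples such as these, fewer cells of a kind and less RNA per cell cannot be told apart. With limma on log2(FPKM + 1) and Benjamini-Hochberg adjustment over all genes tested, 4 of the 6 genes passed an adjusted p of 0.05 as lower and 0 as higher. Over all genes tested, 22.9% were called lower and 20.9% higher, so calls in general were common in this comparison. The groups did not overlap for the same 4 genes, and they did not overlap for 54.7% of all genes tested. Values below are FPKM in libraries 1 to 3 of each group, the log2 changes are palbociclib minus DMSO on the log2(FPKM + 1) scale, and the intervals are 95%.

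**Figure D1:**
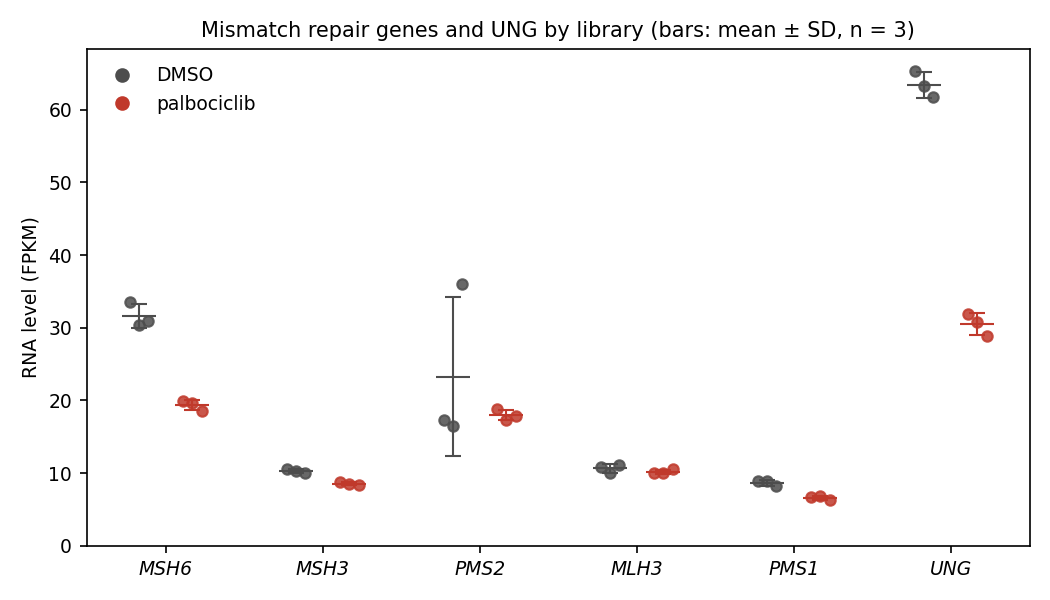
RNA level in FPKM (y axis) of the 6 genes in each of 3 DMSO (grey) and 3 palbociclib (red) libraries, with the mean and SD as bars. UNG and MSH6 separate widely between groups, MSH3 and PMS1 by a narrow gap, and the third DMSO library stands apart for PMS2 at 36.0 FPKM.

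MSH6 (ENSG00000116062, chr2:47783145-47810101, plus strand) measured 33.5, 30.4 and 30.9 FPKM with DMSO, and 20.0, 19.6 and 18.5 with palbociclib. Every palbociclib library lay far below every DMSO library, and the libraries of a group differed little. The means were 31.6 ± 1.7 and 19.4 ± 0.732 FPKM (SD, n = 3), and the log2 change was -0.68 (interval -0.79 to -0.56, limma adjusted p = 1.24e-05). Among all genes tested, 5.2% had a lower log2 change than MSH6.

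MSH3 (ENSG00000113318, chr5:80654652-80876815, plus strand), the other variable MutS subunit, measured 10.6, 10.2 and 10.0 FPKM with DMSO. With palbociclib it measured 8.82, 8.47 and 8.36 FPKM. The groups were separate but close together, and the change was -0.24 on the log2 scale (interval -0.35 to -0.13, limma adjusted p = 0.00399). Both variable MutS subunits were lower, MSH6 by the wider margin.

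The balance of the 2 subunits moved with this. MSH6 was 3.17, 2.96 and 3.08 times the level of MSH3 in the DMSO libraries and 2.26, 2.32 and 2.22 times in the palbociclib libraries. All 3 treated ratios were below all 3 control ratios. The log2 ratio was 1.62 ± 0.048 with DMSO and 1.18 ± 0.031 with palbociclib (SD, n = 3), with an exact permutation p of 0.1 (two-sided), which is the smallest that 3 against 3 libraries can give. This was 1 of 3 ratios examined, and this test cannot reach 0.05 for any of them.

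PMS1 (ENSG00000064933, chr2:189784450-189877629, plus strand) measured 8.86, 8.88 and 8.15 FPKM with DMSO, and 6.69, 6.81 and 6.28 with palbociclib. The lowest control library still exceeded the highest treated one. Its log2 change was -0.34 (interval -0.47 to -0.21, limma adjusted p = 0.0016).

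MLH3 (ENSG00000119684, chr14:75013775-75051467, minus strand) measured 10.9, 9.96 and 11.1 FPKM with DMSO, and 9.95, 9.94 and 10.5 with palbociclib. The groups overlapped, and the second DMSO library was about as low as the lowest treated ones. The log2 change of -0.06 had an interval of -0.19 to 0.06 (limma adjusted p = 0.38), so a fall of the size seen for MSH6 lies outside it.

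PMS2 (ENSG00000122512, chr7:5970925-6009106, minus strand) measured 17.4, 16.5 and 36.0 FPKM with DMSO, and 18.8, 17.3 and 17.9 with palbociclib. The third DMSO library alone set the group apart: it was 2.13 times the mean of the other two control libraries, 16.9 FPKM. Of 9892 genes with a DMSO mean of at least 5 FPKM, 5 including PMS2 were at 2 or more times the mean of the other two in the third DMSO library. The log2 change over all 6 libraries was -0.27 with a wide interval of -0.83 to 0.30 (limma adjusted p = 0.418). Without DMSO replicate 3 it was 0.08 (adjusted p = 0.258), so the negative sign rests on that library. In the authors' deposited table the log2 fold change of PMS2 is -0.37 with a standard error of 0.395 and an adjusted p of 0.516.

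A second measure of RNA came from the splicing tables, as reads at the skipped exon event of each gene that has most reads, scaled to library size (CPM) and tested with edgeR. It was added after the high PMS2 value had been seen. PMS2 event reads were 152.8, 145.7 and 147.5 CPM with DMSO, and 151.7, 147.2 and 149.8 with palbociclib. By this measure the third DMSO library lay between the other two, the groups overlapped, and the log2 change was 0.01 (edgeR adjusted p = 0.916). Over all 71 PMS2 events with a mean of at least 20 reads, the third DMSO library was 0.518 to 1.33 times the mean of the other two (median 0.994), and it reached 2 times in 0 of them. PMS2 has many near-identical copies in the genome, so its FPKM is uncertain where reads could be assigned to a copy. With DMSO, the copy PMS2P2 measured 13.2, 14.3 and 14.9 FPKM (14.1 ± 0.847). The copy PMS2P3 measured 11.93, 12.34 and 11.92 FPKM with DMSO (12.1 ± 0.243). With palbociclib PMS2P3 was higher, at 15.65, 12.91 and 15.53 FPKM (log2 change 0.26, limma adjusted p = 0.0186). PMS2P2 was not called (log2 change 0.05, limma adjusted p = 0.557). Whether assignment of reads plays a part in the high value was not tested.

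**Figure D2:**
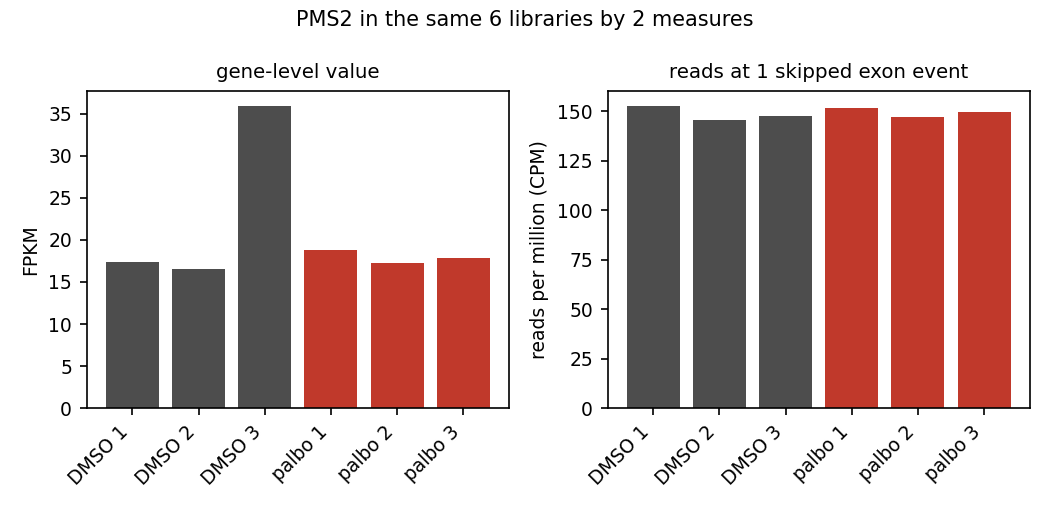
PMS2 in the same 6 RNA libraries as FPKM (left) and as library-scaled reads (CPM) at the skipped exon event with most reads (right), both from 0, with DMSO in grey and palbociclib in red. The third DMSO library is at 36.0 FPKM on the left and at 147.5 CPM, level with the rest, on the right.

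UNG (ENSG00000076248, chr12:109097597-109110992, plus strand) had the highest level and the widest change of the 6 genes. It measured 65.4, 63.2 and 61.8 FPKM with DMSO, and 31.8, 30.7 and 28.9 with palbociclib. The groups were far apart, each within a few FPKM of its own mean. The means were 63.5 ± 1.8 and 30.5 ± 1.5 FPKM (SD, n = 3), and the log2 change was -1.03 (interval -1.14 to -0.93, limma adjusted p = 3.59e-07). Among all genes tested, 2.91% had a lower log2 change. The gene is known to make a nuclear and a mitochondrial form of the enzyme from separate promoters, and the gene-level FPKM sums them. No listed splicing event separates the starts, so their shares were not measured here.

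Read at skipped exon events, 3 of the 6 genes were called lower and 0 higher, where 20.0% of the 11860 genes with such reads were called lower. Event reads of UNG went from 100.0 ± 3.41 to 46.4 ± 5.44 CPM, a log2 change of -1.11 (edgeR adjusted p = 4.02e-16). Those of MSH6 went from 766.0 ± 28.2 to 474.2 ± 15.7 CPM, a change of -0.69 (edgeR adjusted p = 1.25e-16). PMS1 changed by -0.33 (edgeR adjusted p = 0.00165). MSH3 was not called by this measure: its event had 197 to 359 reads per library, the CPM of 18.4, 18.7 and 14.9 with DMSO overlapped those of 16.6, 13.95 and 14.2 with palbociclib, and the log2 change was -0.22 (edgeR adjusted p = 0.164). The sizes from both measures were close for UNG, MSH6, PMS1 and MSH3. MLH3 was at 0.05 (edgeR adjusted p = 0.532), of the opposite sign to its FPKM and likewise not called. In the authors' deposited table the log2 fold changes are -1.06 for UNG, -0.71 for MSH6, -0.39 for PMS1, -0.27 for MSH3 and -0.07 for MLH3, with adjusted p of 5.83e-92, 3.84e-40, 1.46e-06, 8.35e-06 and 0.424.

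The order of levels was compared across genes in FPKM. With DMSO it ran UNG, MSH6, PMS2, MLH3, MSH3 and PMS1, and 2 neighbouring pairs in it overlapped: PMS2 reached above MSH6 in the third library, and the ranges of MLH3 (9.96 to 11.1) and MSH3 (10.0 to 10.6) shared values. Under palbociclib the order of means was the same, with MSH6 (18.5 to 20.0) and PMS2 (17.3 to 18.8) overlapping and MLH3 (9.94 to 10.5) now clear of MSH3 (8.36 to 8.82). PMS2 was 1.96, 1.86 and 4.42 times PMS1 with DMSO and 2.81, 2.54 and 2.85 times with palbociclib. Relative to MLH3 it was 1.6, 1.66 and 3.23 times with DMSO and 1.89, 1.74 and 1.7 times with palbociclib. In both ratios the treated libraries lay above DMSO libraries 1 and 2 and below the third, and the exact permutation p was 1.0 for each (two-sided).

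PMS1 and PMS2 each have a gene on the opposite strand that starts within 1 kb of their own start. Whether the counting used strand is not given in the sources used here.

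ORMDL1, a regulator of sphingolipid synthesis, starts 111 bases from PMS1 and moved the other way. It measured 35.8, 33.3 and 36.0 FPKM with DMSO, and 42.4, 41.7 and 46.4 with palbociclib. All treated libraries were above all controls (log2 change 0.30, limma adjusted p = 0.00162), while PMS1 fell. Event reads of ORMDL1 gave 0.22 (edgeR adjusted p = 0.0607), which was not called.

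AIMP2, a scaffold of the multi-tRNA synthetase complex, starts 166 bases from PMS2. It measured 50.3, 49.9 and 55.0 FPKM with DMSO, and 41.4, 41.7 and 39.3 with palbociclib, a separation with no overlap. Its log2 change of -0.33 was called (limma adjusted p = 0.000542), and event reads gave -0.28 (edgeR adjusted p = 0.000468). PMS2 was not called by either measure, but its FPKM interval of -0.83 to 0.30 includes the change of AIMP2, and the difference between the 2 genes was not tested. The third DMSO library was the highest of its group for AIMP2 also, by a much narrower gap than for PMS2. MSH6, MLH3 and UNG had no such neighbour within 1 kb among the genes listed for them.

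**Figure D3:**
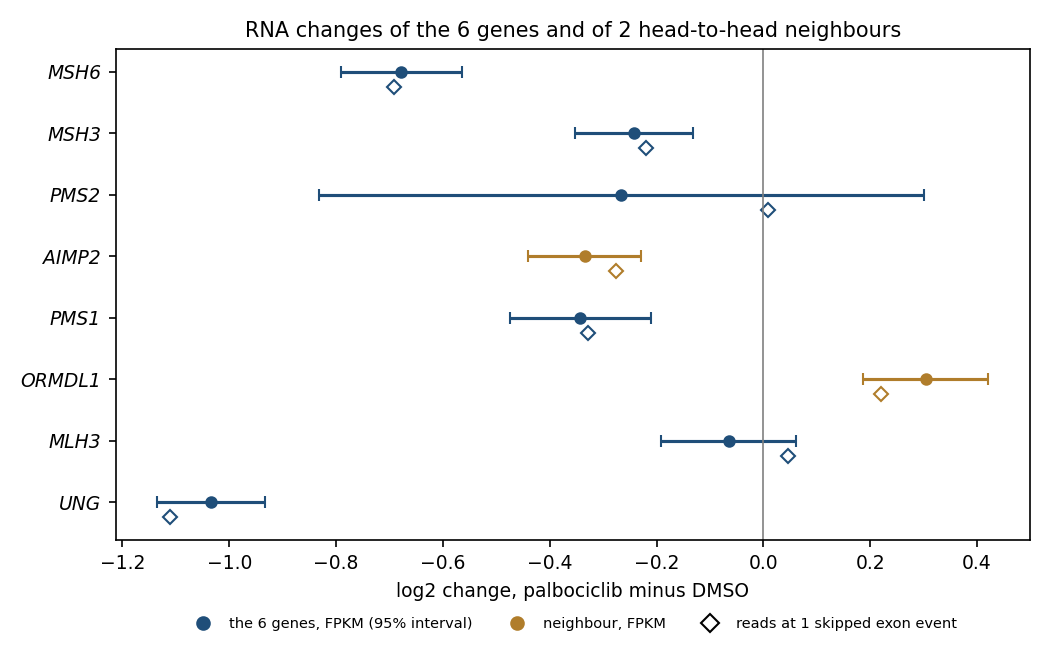
RNA log2 change (x axis, palbociclib minus DMSO) of the 6 genes (blue) and of the 2 neighbours that share a start region (ochre), with 95% intervals from limma on FPKM and open diamonds for reads at 1 skipped exon event per gene. ORMDL1 lies at 0.30 beside PMS1 at -0.34, and AIMP2 at -0.33 beside PMS2 at -0.27 with its wide interval.

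Splicing of the 6 genes was compared as the share of reads from the inclusion form. The tables listed 183 events in them, of which 43 had on average 20 or more reads in a library, with 5% or more of them from the rarer form. With edgeR, 0 of the 43 passed an adjusted p of 0.05, and 1 had an unadjusted p under 0.05, where 0.363% of all 37445 events tested were called. PMS2 had the most listed events (84, with 21 tested), PMS1 had 27 (6 tested), MLH3 24 (8 tested), MSH3 and MSH6 17 each (2 and 4 tested) and UNG 14 (2 tested). Among events tested, the largest difference in mean inclusion level was 0.082, in MLH3.

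The event with unadjusted p under 0.05 was retention of a 590-base intron of MSH6 at chr2:47805028-47805617. Its retained form held 0.006, 0.008 and 0.005 of the signal with DMSO, and 0.015, 0.012 and 0.009 with palbociclib. The treated libraries were all higher, yet the level stayed near 0 in each, resting on 15 to 29 intron reads per library. The edgeR adjusted p was 0.269. For MLH3, the event with the smallest p concerned use of a 73-base exon at chr14:75038340-75038412 against the alternative exon of the pair. MLH3 lies on the minus strand, and the inclusion form of this event holds the alternative exon. The level of that alternative exon was 0.888, 0.793 and 0.824 with DMSO, and 0.797, 0.757 and 0.706 with palbociclib. These groups overlap (edgeR adjusted p = 0.772). The form with the 73-base exon was the rarer one in this event, with 7 to 19 reads per library. The other genes' smallest adjusted p values were 0.657 for PMS1, 0.757 for PMS2, 0.809 for UNG and 0.886 for MSH3. The UNG event, a 98-base exon at chr12:109101902-109101999 paired with its neighbour, was measured with a mean of 1237 reads. Its level was 0.462 ± 0.011 with DMSO and 0.485 ± 0.016 with palbociclib. Listed as skipped exons, this exon and the 89-base exon at chr12:109102839-109102927 were each included at 0.99 or more in every library. The paired level therefore compares reads over exons that were both nearly always included, and does not measure a choice between them.

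The authors' deposited rMATS tables call 2 of the 183 events at an FDR under 0.05, where 2.47% of all 145447 events with an FDR are called. Both are skipped exons with a mean of fewer than 20 reads, and so were not among the 43. An exon of 165 bases in MSH3, at chr5:80848448-80848612, was included at 1.0, 0.75 and 1.0 with DMSO and at 0.36, 0.6 and 0.673 with palbociclib. All treated levels were lower, on a mean of 9.67 reads per library and 0 to 4 skipping reads in each (FDR 0.02 in the authors' deposited table). An exon of 86 bases in MLH3, at chr14:75041615-75041700, was included at 1.0, 0.746 and 0.635 with DMSO and at 1.0 in each palbociclib library. The groups touch at full inclusion, the mean was 12.7 reads, and skipping reads appeared in 2 DMSO libraries alone, as 2 and 4 reads (FDR 0.0358 in the authors' deposited table).

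Chromatin accessibility at the starts was read from 38121 peaks called by the authors over all libraries. A peak lay within 1 kb of a start for 3 of the 6 genes, MSH3, MLH3 and PMS2, and each of these peaks holds the start. The peak table lists none for MSH6, PMS1 and UNG. Among 7889 genes with a mean of at least 5 FPKM and a listed start, 44.9% had a peak that close, so a missing peak was common among expressed genes. The nearest peak to UNG, at chr12:109093294-109093808, holds the start of the neighbouring ALKBH2 and had 64.4 ± 2.82 CPM with DMSO and 62.4 ± 3.05 with palbociclib (edgeR adjusted p = 0.714).

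Of the 3 start peaks, that of MLH3 was lower with palbociclib, and the other two were not called. In the MLH3 peak, at chr14:75050903-75051839, the counts were 39.9, 40.6 and 40.7 CPM with DMSO, and 35.0, 32.6 and 33.5 with palbociclib. All treated libraries lay below all controls, and the log2 change was -0.26 (interval -0.41 to -0.12, edgeR adjusted p = 0.013). Over all peaks tested, 6.46% were called lower. Without palbociclib replicate 2 the change was -0.24 with an adjusted p of 0.0535, which ends the call. MLH3 RNA was not called, as given above.

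The MSH3 peak, at chr5:80654542-80655533, had 87.6, 81.0 and 88.7 CPM with DMSO, and 80.2, 79.0 and 84.3 with palbociclib. The groups overlapped, and the log2 change of -0.08 had an interval of -0.19 to 0.03 (edgeR adjusted p = 0.405). The PMS2 peak, at chr7:6008730-6009698, holds the AIMP2 start and was the most accessible of the 3. It had 142.2, 132.9 and 148.0 CPM with DMSO, and 133.5, 142.3 and 132.5 with palbociclib, again overlapping (log2 change -0.05, interval -0.15 to 0.05, edgeR adjusted p = 0.575).

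**Figure D4:**
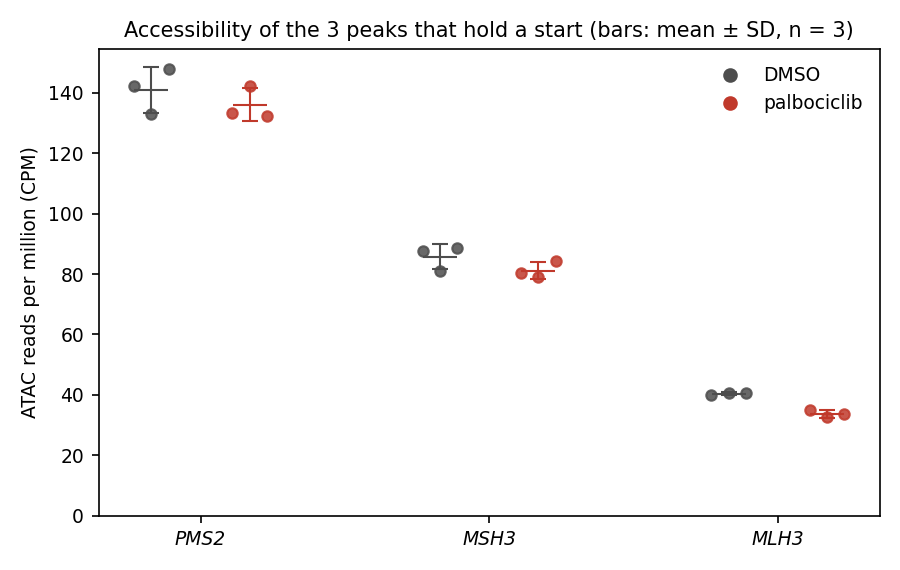
ATAC-seq counts in CPM (y axis) in the 3 peaks that hold the start of PMS2, MSH3 or MLH3, for 3 DMSO (grey) and 3 palbociclib (red) libraries, with the mean and SD as bars. The groups overlap for PMS2 and MSH3, and for MLH3 all treated libraries, at 32.6 to 35.0 CPM, lie below the controls.

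Inside the genes and away from starts, 3 peaks were described after they had been seen. A peak at chr7:5995591-5996073, across an exon and intron boundary of PMS2, had 8.26, 9.33 and 9.02 CPM with DMSO, and 10.7, 14.8 and 12.9 with palbociclib. Each treated library exceeded each control (log2 change 0.52, interval 0.26 to 0.78, edgeR adjusted p = 0.00542), where 5.41% of all peaks were called higher. It rests on 105 to 218 reads per library, and without palbociclib replicate 2 the adjusted p was 0.0796. A further PMS2 peak at chr7:5983888-5984345 (edgeR adjusted p = 0.733) and 1 in MSH3 at chr5:80711900-80712238 (edgeR adjusted p = 0.501) were not called.

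The genes that work with these enzymes were taken as lists of 61 in all, of which 54 were tested. Of these, 40 were lower, 6 higher and 8 not called, and their median log2 change was -0.60 against 0.00 over all genes tested. With the FAM72 copies described further on counted once, 37 of 51 were lower and the median was -0.47. The shares of all genes, given above, were 22.9% lower and 20.9% higher.

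The steps after mismatch recognition, excision and resynthesis, had 17 genes, with 15 lower, 1 higher and 1 not called (median -1.22). EXO1, the exonuclease that removes the strand with the error, went from 17.3 ± 1.34 to 0.727 ± 0.22 FPKM (log2 change -3.41, limma adjusted p = 3e-08). PCNA, the sliding clamp, went from 200.8 ± 4.53 to 32.5 ± 1.37 FPKM, and LIG1, the ligase that closes the nick, from 18.9 ± 1.21 to 3.33 ± 0.162 FPKM. All 3 had larger log2 changes than any of the 6 genes themselves. POLD4, the smallest subunit of polymerase delta, was the riser (log2 change 0.41, limma adjusted p = 0.000583), and SSBP1, listed here as a single-strand binding protein although it acts in mitochondria, was not called (146.2 ± 4.59 and 137.2 ± 2.9 FPKM, limma adjusted p = 0.0569). Of 2 meiotic MutS genes listed, MSH5 was lower (16.1 ± 0.85 to 8.35 ± 1.29 FPKM, limma adjusted p = 0.000122), and MSH4 was not analysed here.

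The other DNA glycosylases, which start base excision at other damaged bases or, for some of them, at uracil or at thymine mispairs, moved in both directions. Of 10, 4 were lower, 3 higher and 3 not called (median -0.07). NEIL3 fell from 9.4 ± 0.539 to 0.438 ± 0.0902 FPKM (log2 change -2.86, limma adjusted p = 1.73e-08), and MUTYH and OGG1, which act on oxidised guanine pairs, fell too, with log2 changes of -0.47 and -0.46. NEIL1, NEIL2 and MPG rose, with log2 changes of 0.35, 0.25 and 0.24. SMUG1, the other main uracil glycosylase, measured 42.7 ± 2.4 FPKM with DMSO and 43.1 ± 1.85 with palbociclib (limma adjusted p = 0.849), and TDG 40.1 ± 0.717 and 42.3 ± 1.97 (limma adjusted p = 0.169). So UNG stood above SMUG1 with DMSO, at 63.5 against 42.7 FPKM, and below it with palbociclib, at 30.5 against 43.1, with no overlap of libraries on either side.

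Downstream in base excision repair, 8 of 12 genes were lower, 1 higher and 3 not called (median -0.27). FEN1, the flap nuclease of the long-patch route, fell by 82.2% (84.8 ± 1.58 to 15.1 ± 1.09 FPKM, limma adjusted p = 3.61e-09), PARP2 from 29.9 ± 0.328 to 14.8 ± 0.524 FPKM and TDP1 from 24.0 ± 1.03 to 13.4 ± 0.575 FPKM. POLL rose, with a log2 change of 0.19. APEX1, the main endonuclease at abasic sites, and POLB, the short-patch polymerase, were not called, with log2 changes of 0.00 and -0.01.

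Of 10 genes that supply uracil to DNA or remove its precursor, 4 were tested, with 3 lower and 1 higher (median -0.85). APOBEC3B, a cytosine deaminase of DNA, went from 26.4 ± 0.71 to 3.02 ± 0.405 FPKM (log2 change -2.78, limma adjusted p = 1.94e-08). DUT, which breaks down dUTP, went from 155.9 ± 4.3 to 52.8 ± 2.91 FPKM (log2 change -1.55, limma adjusted p = 2.51e-08), DCTPP1 changed by -0.15, and APOBEC3F rose by 0.33 on the log2 scale. Both a source of uracil and its removal at the nucleotide level were lower, each with a larger log2 change than UNG.

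Known partners of the 6 proteins made the last list, with 9 of 10 lower, 0 higher and 1 not called (median -1.93). The list holds 4 near-identical copies, FAM72A, FAM72B, FAM72C and FAM72D, and with these counted once, as FAM72A, 6 of 7 were lower and the median was -0.39. FAM72A, which binds UNG and promotes its loss, fell from 17.6 ± 1.2 to 1.88 ± 0.103 FPKM (log2 change -2.69, limma adjusted p = 9.83e-09). The log2 changes of FAM72B, FAM72C and FAM72D were -2.56, -2.55 and -2.77. Reads could be split among these copies, so their separate values are uncertain. SETD2, which writes the H3K36me3 mark that MSH6 binds, was at 15.3 FPKM with DMSO and 13.9 with palbociclib. Its log2 change of -0.14 was called by a narrow margin (limma adjusted p = 0.0419).

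**Figure D5:**
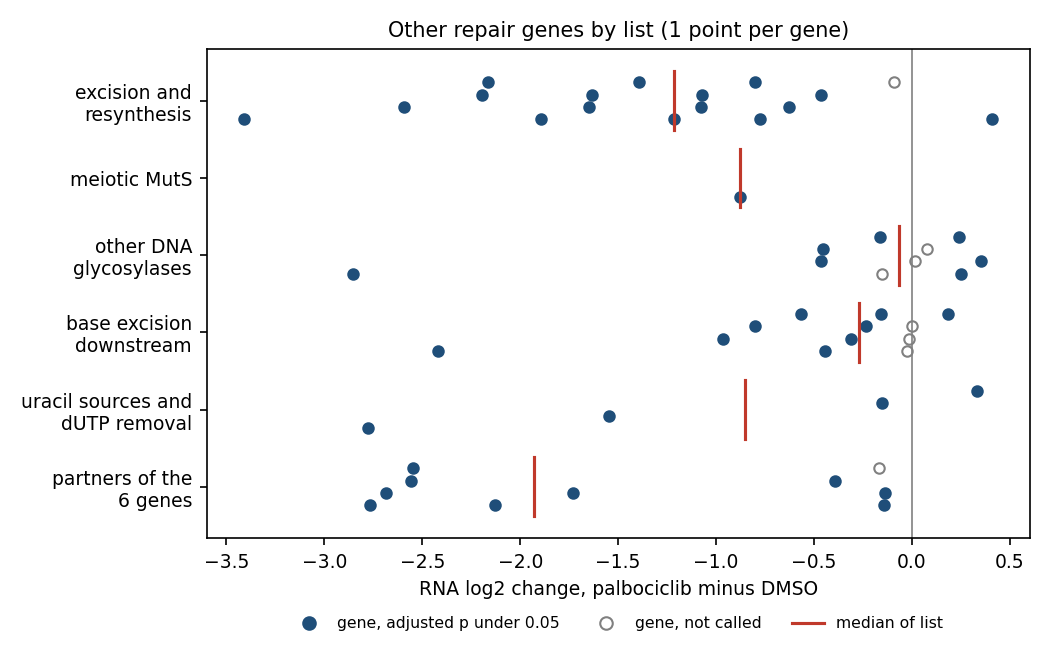
RNA log2 change (x axis, palbociclib minus DMSO) of 54 other repair genes in 6 lists, 1 point per gene, filled where limma's adjusted p was under 0.05, with the median of each list as a red line. Of the 17 excision genes, 15 are filled points to the left of 0, the glycosylases spread on both sides of 0, and the 4 points furthest left among the partners are the FAM72 copies.

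Genes with the most similar pattern were taken as the 2 with the smallest Euclidean distance over the 6 libraries, on log2(FPKM + 1) centred on the DMSO mean. For UNG they were RNF26 (distance 0.0639, log2 change -1.05) and H2AZ2 (0.0669, -1.03), for MSH6 they were CMC2 (0.0636, -0.66) and PRADC1 (0.0819, -0.69), and for MSH3 they were ZBTB2 (0.0406, -0.26) and PNN (0.0429, -0.24). Those of PMS1 were TAF3 (0.0559) and RUSC1 (0.066), and those of MLH3 were MOB1B (0.0341) and CCNT1 (0.0354). For PMS2, no gene came closer than ZSCAN5A (0.358) and DENND1A (0.42), so its pattern, with the high level in the third DMSO library, had no near match.

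The skipped exon tables held 52242249 to 75371638 reads per RNA library, and the ATAC libraries 12830062 to 18250496 reads in peaks. All 8 luminal markers were above 1 FPKM in every library, and their sum was 5419 to 5940 FPKM with DMSO and 7312 to 8084 with palbociclib. Most of that sum came from the keratins KRT8 (means of 1698 and 2491 FPKM), KRT18 (996.0 and 1413) and KRT19 (2113 and 2916), while EPCAM went from 195.6 to 177.1 FPKM and ESR1 from 43.2 to 48.2. Of 9 markers of other cell types, 5 were in the table, and their sum was 34.4 to 35.2 FPKM with DMSO and 35.0 to 37.1 with palbociclib. COL1A1, at 23.1 to 26.0 FPKM, made up most of that sum. ACTA2, at 8.51 to 9.17 FPKM, and VIM, at 1.171 to 2.185 FPKM, were also above 1 FPKM in every library. COL1A2 and TP63 were below 1 FPKM in every library.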

How the data were processed

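T-47D cells with DMSO or 1 µM palbociclib for 24 h were measured by RNA-seq and ATAC-seq, 3 libraries per group and assay. RNA values are FPKM as deposited by the authors. The deposited DESeq2 table of the authors gives for each gene a mean normalized count (a signal value), a log2 fold change and its error, a test statistic (a score) and p-values. Splicing tables in rMATS format, deposited by the authors, hold read counts, inclusion levels, the difference of levels (a score), p-values and an FDR. The deposited ATAC counts come from featureCounts, per the file headers. The submitters' processing notes name fastp 0.23.2, Salmon 1.10.2, STAR 2.7.10b and DESeq2 1.44.0 for RNA, Bowtie2 2.5.4-6 and MACS3 3.0.3-0 for ATAC, and GRCh38. The counting strand and annotation are not given in the sources used here.

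Computed here with R 4.3.3: limma 3.58.1 with intensity trend on log2(FPKM + 1), and edgeR 4.0.16 quasi-likelihood tests on peak counts (TMM), on event reads, and on counts of both forms of an event with library as a term. The p-values of these tests were Benjamini-Hochberg adjusted over all genes, peaks or events tested, except where given as unadjusted. Ratios of subunit levels were compared with an exact permutation test over the 6 RNA libraries, whose p-values were not adjusted. All tests were two-sided. The limma fit and the edgeR tests of peaks and of both forms of an event were tried on simulated data. The edgeR test of event reads was not. A log2(FPKM + 1) change understates that of low genes, and FPKM carry no depth of their own. Intervals cover the spread between libraries and, for peaks, use the normal approximation. The 6 genes, the lists, and the tests were chosen with earlier results of these data known. Named genes were the 3 called genes of each list with the largest fall and with the largest rise, uncalled genes of a list over 30 FPKM, neighbours starting within 1 kb on the other strand, and 2 similar genes per gene. Of the items this rule names, 1 is not reported here. SETD2 and FAM72C were named, and UNG set beside SMUG1, after values were seen. Alternatives changed the pseudocount, filters, scaling, variance model, ATAC test and libraries, and DESeq2 1.42.0 served as another test of peaks. The labels do not say that equal replicate numbers mark paired libraries.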

Additional observations from a re-analysis of the deposited data

How the results depend on the processing

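The falls of UNG, MSH6 and PMS1 kept their direction and their call under all 14 alternatives, with log2 changes of -1.11 to -0.94, -0.71 to -0.58 and -0.38 to -0.25. MSH3 did so under 13, with log2 changes of -0.265 to -0.142 over the 14. Its smallest were -0.142 with quantile normalization (limma adjusted p = 0.039) and -0.146 with median centring (limma adjusted p = 0.0358). Event reads of MSH3 gave -0.22 (edgeR adjusted p = 0.164). MLH3 RNA, not called under any of the 14, changed sign to 0.04 with quantile normalization, 0.031 with median centring and 0.047 with event reads, and PMS2 RNA, also never called, to 0.082 without DMSO replicate 3 and 0.009 with event reads, its range over single libraries left out being -0.457 to 0.082. The MLH3 start peak was called under 10 of 11 alternatives (-0.29 to -0.24) and lost its call, at -0.24, without palbociclib replicate 2. Inside PMS2, the peak at chr7:5983888 ranged from -0.307 to 0.04 with 1 library left out, the latter without palbociclib replicate 3, and the peak at chr7:5995591 was at 0.40 without palbociclib replicate 2. The log2 ratio of MSH6 over MSH3 differed by -0.46 to -0.42 between groups. Without DMSO replicate 3, that of PMS2 over PMS1 differed by 0.52 against 0.11 with all libraries, and that of PMS2 over MLH3 by 0.12 against -0.20. Without DMSO replicate 1 or 2, the difference for PMS2 over PMS1 changed sign, to -0.07 and -0.108. For PMS2 over MLH3 it was then -0.382 and -0.357. With the FAM72 copies counted once, the median log2 change of the partner list was -0.394 against -1.93. Other repair genes called lower numbered 35 to 40 and those higher 5 to 7. Splicing calls in the 6 genes stayed at 0, while calls over all events, 136 in all, were 59 to 128 with 1 library left out, 44 without the filter on the minor form (161 events of the 6 genes then tested) and 249 with a replicate block. With a window of 5 kb, 4 peaks instead of 3 lay near starts. Causes of these shifts were not tested.

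Deviations of same-numbered libraries correlated at -0.005 to 0.106 in RNA and -0.025 to 0.039 in ATAC. Such values from 3 libraries per group do not settle whether the libraries were paired. With a replicate block, 6963 genes were called against 6940, UNG was at -1.03, MSH6 at -0.68 and MSH3 at -0.24, and no call of the 6 genes or their start peaks changed. The MSH3 event had 197 to 359 reads per library, which limits the precision of its value.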
